A study of Mus musculus with 54 samples.

Results

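The libraries of wild-type (WT, Ctcf+/+Boris+/+) round spermatids (RS) and WT spermatocytes (SC) were compared, which is the normal change in poly(A) RNA from cells in meiosis to haploid cells after meiosis. These were the 3 WT RS and the 2 WT SC libraries of the deposited RS and SC count table, 5 of the 54 samples of the series and 5 of the 23 RS and SC libraries of all genotypes. The series examined how CTCF, the zinc finger protein that organises chromatin loops, and its testis paralog BORIS (gene Ctcfl) act together in male germ cells, and it also held libraries of mice heterozygous for Ctcf (CTCF HET), lacking Boris (BORIS KO) or carrying both changes (the compound mutant, CM, labelled DKO). The WT cells came from testes of untreated C57BL/6 mice aged 3 months. Each germ cell preparation pooled 4 mice, and RS and SC were enriched by centrifugal elutriation and then sorted on a DNA dye, with dead cells removed. The purities given with the samples were 93.7 ± 2.3% for RS and, from SYCP3 immunostaining, 81.5 ± 3.7% for SC, so that each fraction was a mixture and neither was a defined stage. Nothing in the labels ties a library to its own pool of mice, and the p-values below therefore measure only the spread between these libraries, which may be technical.

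In the first meiotic prophase, spermatocytes pair and recombine their chromosomes, build the synaptonemal complex, produce most of the piRNAs of the adult testis and keep the unpaired X and Y chromosomes in a silent body. Round spermatids are the haploid products: they build the acrosome, a secretory vesicle that covers the nucleus, begin the flagellum and start to make the transition proteins and protamines that later replace the histones. Many mRNAs made in either cell are stored and translated days later, and cytoplasmic bridges join sister cells, so that the presence of an mRNA does not date the protein.

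Each library was deep, with total counts from 50861159 to 98545423 and between 17504 and 17985 of the 23284 listed genes with at least 1 count. Replicate 1 of RS stood apart from replicates 2 and 3: of 16052 tested genes, 424 differed by more than 2-fold between replicate 1 and the mean of the other two, against 46 between replicates 2 and 3 and 1 between the SC libraries. Levels are given in CPM, the count of a gene scaled to the size of its library with TMM factors, and not to its length. Pearson's r of log2 CPM across genes, which are not independent replicates, was 0.990 between replicate 1 and either of the others and 0.997 between replicates 2 and 3. It was replicates 2 and 3 that lay outside the rest of the series for several genes, picked here after their values were seen. Malat1, a nuclear long noncoding RNA, was at 240 and 198 CPM in these libraries and at 13.1 to 174 CPM in the other 21 RS and SC libraries, and Rab4a, a small GTPase, was at 0 and 0.0778 CPM against 1.39 to 9.94 CPM. Results that turn on one of these libraries are given below with and without it.

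Defining markers were looked at first. The transition protein and protamine genes Tnp1, Tnp2, Prm1 and Prm2 were each higher in every RS library than in either SC library, with values given below. A lack of overlap between RS and SC libraries was common, as 13129 of 16052 tested genes had none in one direction or the other. Transcripts of the meiotic axis were less exclusive: Sycp3, the lateral element protein of the synaptonemal complex, was at 84.0, 101 and 111 CPM in RS and 419 and 334 CPM in SC, so that the 3 RS libraries lay below both SC libraries without losing the transcript. Other axis genes went other ways, with values given below. Of 20 tested, 7 were called higher in RS and 7 higher in SC. Smc1b and Rec8 lay higher in every RS library than in SC, and Sycp1 and Stag3 overlapped. A transcript can be lower in a bulk fraction because fewer cells of a kind are present or because each cell holds less of it, and these cannot be told apart here.

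Promoters of 7 genes that mark the change are shown because the counts of short motifs given further down can be read in them. They were chosen after the values and the motifs had been seen. Each runs from 250 bases before to 50 bases after the annotated start, 5′ to 3′ on the strand of the gene, and was taken from RefSeq (GRCm38.p6) and placed by exact match on NCBIM37 (mm9), the build of the deposited data. Capitals mark TGATGTCA on either strand in the first 5, which are of genes higher in RS, GTTGCCA in Iqca, also higher in RS, and GGCAGTT in Piwil1, higher in SC.
Tnp1: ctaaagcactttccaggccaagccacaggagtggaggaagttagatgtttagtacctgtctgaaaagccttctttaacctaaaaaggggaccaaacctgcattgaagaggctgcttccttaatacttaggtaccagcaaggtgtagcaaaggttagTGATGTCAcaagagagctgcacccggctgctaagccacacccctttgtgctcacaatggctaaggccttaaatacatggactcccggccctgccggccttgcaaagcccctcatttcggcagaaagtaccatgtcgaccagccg
Smcp: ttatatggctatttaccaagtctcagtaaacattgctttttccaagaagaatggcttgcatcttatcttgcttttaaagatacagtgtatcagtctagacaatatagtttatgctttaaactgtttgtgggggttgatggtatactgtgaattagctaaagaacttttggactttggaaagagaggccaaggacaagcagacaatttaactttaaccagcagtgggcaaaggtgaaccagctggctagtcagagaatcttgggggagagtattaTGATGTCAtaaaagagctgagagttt
Gapdhs: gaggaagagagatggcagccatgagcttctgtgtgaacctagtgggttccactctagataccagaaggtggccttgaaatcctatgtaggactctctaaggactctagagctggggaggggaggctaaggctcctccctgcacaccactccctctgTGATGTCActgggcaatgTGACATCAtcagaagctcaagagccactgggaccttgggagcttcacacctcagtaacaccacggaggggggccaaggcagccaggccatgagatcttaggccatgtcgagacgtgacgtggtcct
Spam1: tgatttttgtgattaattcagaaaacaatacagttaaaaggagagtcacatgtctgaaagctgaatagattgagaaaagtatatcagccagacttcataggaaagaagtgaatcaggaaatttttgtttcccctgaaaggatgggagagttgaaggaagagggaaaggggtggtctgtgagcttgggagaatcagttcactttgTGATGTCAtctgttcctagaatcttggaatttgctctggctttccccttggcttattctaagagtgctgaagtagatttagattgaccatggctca
Akap4: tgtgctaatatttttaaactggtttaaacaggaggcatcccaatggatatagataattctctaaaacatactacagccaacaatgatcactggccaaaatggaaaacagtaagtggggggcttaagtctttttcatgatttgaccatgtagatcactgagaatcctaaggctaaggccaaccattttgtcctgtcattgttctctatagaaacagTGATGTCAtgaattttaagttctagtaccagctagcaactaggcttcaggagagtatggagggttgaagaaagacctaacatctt
Iqca: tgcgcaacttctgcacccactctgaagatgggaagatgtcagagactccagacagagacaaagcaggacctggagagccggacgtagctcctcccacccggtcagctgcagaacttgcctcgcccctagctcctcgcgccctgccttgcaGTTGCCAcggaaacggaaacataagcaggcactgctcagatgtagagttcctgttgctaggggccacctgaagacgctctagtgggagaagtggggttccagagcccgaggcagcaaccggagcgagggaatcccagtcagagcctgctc
Piwil1: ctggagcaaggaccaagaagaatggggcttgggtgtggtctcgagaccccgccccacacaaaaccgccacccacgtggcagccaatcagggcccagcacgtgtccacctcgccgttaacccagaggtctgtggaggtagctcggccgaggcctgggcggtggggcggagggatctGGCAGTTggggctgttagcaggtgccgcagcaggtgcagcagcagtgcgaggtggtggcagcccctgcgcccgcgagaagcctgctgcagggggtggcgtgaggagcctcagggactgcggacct

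On mm9 these are Tnp1 at chr1:73062424-73062723 on the minus strand, Smcp at chr3:92392946-92393245 on the minus strand, Gapdhs at chr7:31528651-31528950 on the minus strand, Spam1 at chr6:24740938-24741237 on the plus strand, Akap4 at chrX:6644391-6644690 on the plus strand, Iqca at chr1:92049962-92050261 on the minus strand and Piwil1 at chr5:129241871-129242170 on the plus strand. With the annotated start as position 0, the first base of TGATGTCA lay at -94 in Tnp1, 24 in Smcp, -46 in Spam1 and -35 in Akap4, and Gapdhs held it at -94 and, on the other strand, at -76. GTTGCCA began at -100 in Iqca and GGCAGTT at -75 in Piwil1. All 7 promoters had a Pol2 peak of WT germ cells within 1 kb of a start, 6 of them, all but Spam1, an H3K4me3 peak, and none a CTCF or BORIS peak.

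Most tested genes changed from SC to RS. Of 16052 tested genes, 8390 (52.3%) were called at an edgeR adjusted p under 0.05 and a fold change over 2, of which 4700 (29.3% of those tested) were higher in RS and 3690 (23.0%) were higher in SC. These shares are the background against which the gene groups below are read. The directions had unequal sizes. Genes called higher in RS had a median log2 fold change of 3.95 and 2323 of them (49.4%) passed a log2 fold change of 4, whereas genes called higher in SC had a median size of 1.83 and 183 (4.96%) passed 4. On the autosomes alone the values for the genes higher in RS were 3.45 and 42.6%. A gene with no count in SC has no true fold change, and with such genes held at the bound given by 3 counts over both SC libraries the median of the genes higher in RS was 3.79.

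Read as levels, genes called higher in RS were mostly low in SC, and genes called higher in SC lay at a larger part of their level in RS. CPM are relative to each library, and RNA per cell was not measured. Calls needed a fold change over 2, which itself limits the level in the other cell. Among the 1747 genes called higher in RS with a mean of at least 10 CPM in RS, the SC level was a median of 6.66% of the RS level, with a 5th percentile of 0.961% and a minimum of 0.272%. Among the 2150 genes called higher in SC with a mean of at least 10 CPM in SC, the RS level was a median of 29.7% of the SC level, with a 5th percentile of 7.09% and a minimum of 1.56%. Genes called higher in RS took 25.0% of the counts in RS and 5.32% in SC, and genes called higher in SC took 23.8% in SC and 6.68% in RS. The part of the cells of other stages that each sorted fraction contained was not tested.

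**Figure D1:**
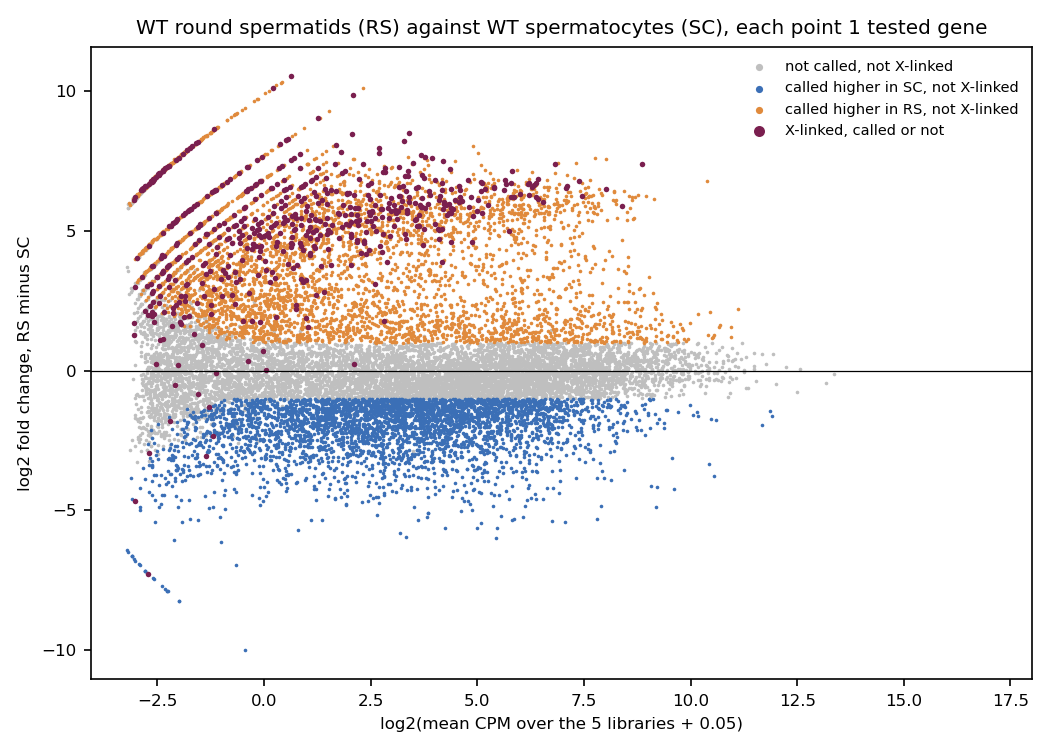
Log2 fold change between WT RS and WT SC (y axis) against the mean level over the 5 libraries (x axis, log2 of mean CPM + 0.05) for each of the 16052 tested genes. Genes called higher in RS (orange) reach larger fold changes than those called higher in SC (blue), and the slanted lines of points at low levels are genes with no or few counts in one cell type. Of 566 X-linked genes (purple), 527 are called higher in RS.

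Most of these calls did not need RS replicate 1. Without it 4452 of the 4700 genes higher in RS and 3568 of the 3690 genes higher in SC were called again in the same direction, and with it as the only RS library 4249 and 3353 were, with 1 call in the opposite direction. In the latter fit, which called 8816 genes, the spread came from the 2 SC libraries alone and the single RS library was assumed to vary like them. More of the calls were lost on the SC side, which has 2 libraries. Without SC replicate 1 or 2 a single SC library remained, and the spread came from the RS libraries alone.

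The genes with most CPM and the most changed genes are described next. Among the 10 genes with the most CPM in RS that were called higher there were Smcp, the capsule protein of sperm mitochondria, at 1641, 2723 and 2264 CPM in RS and 22.4 and 18.5 CPM in SC, Akap12, a kinase anchor protein, at 3472, 2321 and 2201 CPM in RS and 910 and 907 CPM in SC, Ift74, a subunit of intraflagellar transport, at 1843, 2828 and 3046 CPM in RS and 1271 and 949 CPM in SC, and Papolb, the testis poly(A) polymerase, at 1770, 1924 and 1992 CPM in RS and 861 and 793 CPM in SC. Smcp rose by a log2 fold change of 6.76 ± 0.28 (edgeR adjusted p = 9.74e-07), whereas the other 3 rose by 1.55, 1.21 and 1.20, and both SC libraries lay below all RS libraries in each. With RS replicate 1 as the only RS library Ift74 had a log2 fold change of 0.71 and was not called. Iqca, one of the 10 most changed genes with at least 10 CPM in RS, was at 354, 358 and 361 CPM in RS and 2.10 and 1.57 CPM in SC, a log2 fold change of 7.60 ± 0.17 (edgeR adjusted p = 1.22e-07), and no RS library came near an SC library. Of these 10 most changed genes, Gm2012, Ssxb2, Ssxb3, Gm8787, Ssxb1 and Ssxb6 lie on the X chromosome and belong to families of near-identical copies, for which the counts of a single member are uncertain. Gm2012, the first of them, rested on 1467, 827 and 1174 counts in RS and 5 and 3 in SC.

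In SC the corresponding genes were Calm2, a calmodulin gene, at 214, 263 and 270 CPM in RS and 3532 and 3248 CPM in SC, Slc2a3, the glucose transporter GLUT3, at 335, 279 and 277 CPM in RS and 2956 and 3107 CPM in SC, and Mllt10, a chromatin reader, at 81.1, 104 and 105 CPM in RS and 1933 and 1718 CPM in SC. Their log2 fold changes were -3.77, -3.35 and -4.24, and in each the 3 RS libraries were near one another and far below both SC libraries. The most changed gene with at least 10 CPM in SC was Pou5f2, a testis POU-domain factor, at 1.75, 1.82 and 1.35 CPM in RS and 99.8 and 111 CPM in SC, a log2 fold change of -6.00 ± 0.16 (edgeR adjusted p = 1.70e-07). Mark2, a microtubule affinity kinase, followed the same course at 5.75, 6.81 and 6.24 CPM in RS and 256 and 264 CPM in SC.

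Genes of the acrosome and of gamete fusion fell into separate classes. Of 52 tested members of this list (53 listed, 52 in the table), 30 were called higher in RS and 2 higher in SC, beside 29.3% and 23.0% of all tested genes, and the median log2 fold change was 5.22. All 30 passed a log2 fold change of 4, no member lay between 1 and 4, and 20 lay within 1 of 0. Over all tested genes 2389 passed 4, 2871 lay between 1 and 4 and 6736 within 1 of 0. Acrv1, a protein of the acrosomal matrix, was at 206, 239 and 229 CPM in RS and 3.05 and 2.94 CPM in SC, a log2 fold change of 6.23 ± 0.14 (edgeR adjusted p = 1.18e-07). Spaca1, of the inner acrosomal membrane, was at 307, 315 and 345 CPM in RS and 4.36 and 4.15 CPM in SC, and Spam1, the hyaluronidase of the sperm surface whose promoter is printed above, at 285, 316 and 312 CPM in RS and 3.27 and 3.41 CPM in SC. Izumo1, the sperm ligand of the egg receptor Juno, was at 69.2, 75.2 and 73.7 CPM in RS and 1.13 and 1.56 CPM in SC and rose by 5.76 ± 0.19. In all 4 genes the lowest RS library was far above the highest SC library.

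The other class was present in SC at levels within 2-fold of those in RS. Acr, the acrosomal protease acrosin, was at 433, 516 and 480 CPM in RS and 297 and 326 CPM in SC, and Acrbp, which binds its precursor, at 885, 935 and 935 CPM in RS and 619 and 624 CPM in SC. Zpbp, a protein of the acrosome that binds the zona pellucida, was at 291, 301 and 331 CPM in RS and 221 and 206 CPM in SC. For these 3 genes all RS libraries lay above both SC libraries, but the fold change stayed under 2. Crisp2, a cysteine-rich protein of the acrosome and tail, was at 3339, 3809 and 3952 CPM in RS and 3364 and 2960 CPM in SC and its groups overlapped. Adam2, a subunit of the sperm surface protein fertilin, was at 561, 521 and 551 CPM in RS and 715 and 739 CPM in SC. Of the 52 members, 49 had a mean of at least 10 CPM in RS and 22 in SC. The 2 members higher in SC were Tex101, a membrane protein that acts in the maturation of sperm surface proteins, at 5.21, 3.69 and 4.54 CPM in RS and 89.1 and 98.4 CPM in SC, and Gopc, a Golgi protein required for acrosome formation, at 33.1, 31.4 and 28.1 CPM in RS and 227 and 205 CPM in SC.

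**Figure D2:**
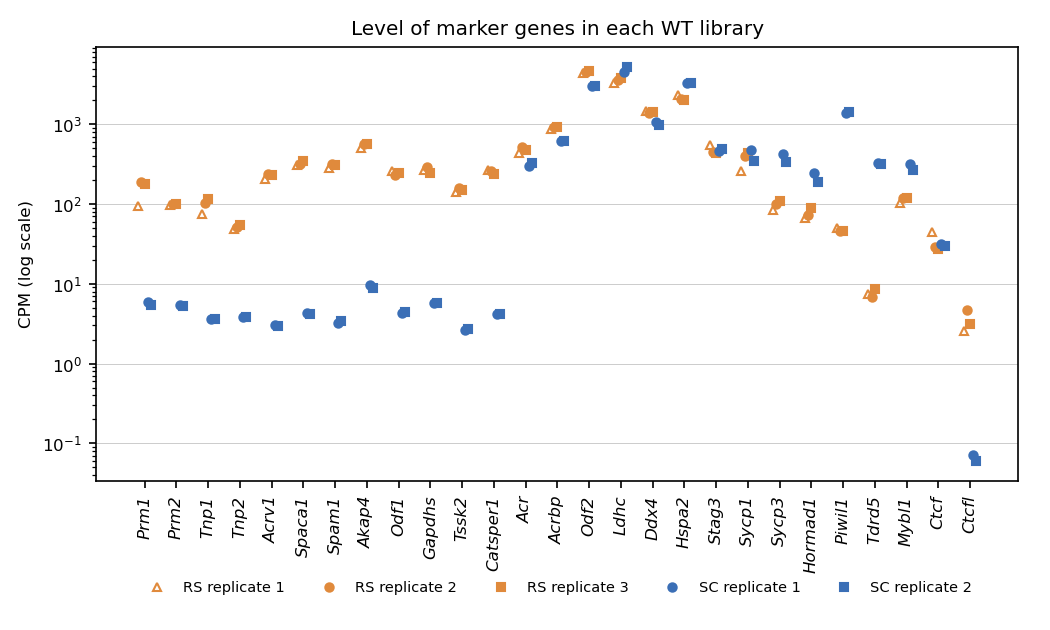
Level of 27 marker genes in each WT library (CPM, log scale; orange RS, blue SC; open triangle RS replicate 1). The genes on the left, from Prm1 to Catsper1, lie at 49.3 to 573 CPM in RS and below 10 CPM in SC, those from Acr to Sycp1 lie close together in both cells, and Piwil1 and Tdrd5 lie far higher in SC.

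The transition protein and protamine genes, whose products replace the histones, were low in SC. Of 18 tested members (21 listed), 12 (66.7%) were called higher in RS and 4 (22.2%) higher in SC, with a median log2 fold change of 4.12. The share higher in SC lay near the 23.0% of all tested genes. Prm1, a protamine, was at 95.7, 189 and 177 CPM in RS and 5.88 and 5.48 CPM in SC, a log2 fold change of 4.76 ± 0.34 (edgeR adjusted p = 1.33e-05), and replicate 1 was the lowest RS library. Here too replicates 2 and 3 lay outside the rest of the series. On scaling factors common to the 23 libraries they were at 205 and 192 CPM, against 3.49 to 139 CPM in the other 21. Replicate 1, at 105 CPM, lay within that range. Prm2, the other protamine, was even across the RS libraries at 97.4, 99.5 and 99.9 CPM in RS and 5.40 and 5.32 CPM in SC, as was Tnp2, a transition protein, at 49.3, 51.6 and 54.0 CPM in RS and 3.84 and 3.83 CPM in SC. Tnp1 was at 75.4, 104 and 114 CPM in RS and 3.60 and 3.63 CPM in SC. Chd5, a chromatin remodeller needed for the histone exchange, was at 328, 250 and 234 CPM in RS and 9.44 and 10.1 CPM in SC and rose by 4.79 ± 0.19. Brdt, the bromodomain protein that binds acetylated histones and acts from meiosis on, was at 992, 1036 and 1085 CPM in RS and 1019 and 929 CPM in SC, and its groups overlapped. The 4 members higher in SC included H3f3b, which encodes the replacement histone H3.3, at 210, 180 and 190 CPM in RS and 878 and 823 CPM in SC, with a log2 fold change of -2.14.

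Of 60 tested genes of the sperm tail (65 listed), 18 (30.0%) were called higher in RS, a share near that of all tested genes, and 7 (11.7%) higher in SC. The median log2 fold change was 0.30, and 35 lay within 1 of 0. Examples higher in RS were Akap4, the main fibrous sheath protein, at 507, 572 and 573 CPM in RS and 9.63 and 8.88 CPM in SC, Odf1, an outer dense fibre protein, at 258, 229 and 244 CPM in RS and 4.24 and 4.49 CPM in SC, and Cabyr, a calcium-binding fibrous sheath protein, at 716, 906 and 858 CPM in RS and 11.2 and 10.5 CPM in SC. Their log2 fold changes were 5.89, 5.80 and 6.25. Odf2, another outer dense fibre protein that also serves centrosomes, was at 4362, 4497 and 4676 CPM in RS and 2986 and 3007 CPM in SC, and Meig1, a manchette protein needed for the tail, at 3999, 5333 and 5729 CPM in RS and 4755 and 4428 CPM in SC. Among the 7 members called higher in SC were axonemal genes. Rsph1, of the radial spoke, was at 2298, 1980 and 2007 CPM in RS and 6070 and 6800 CPM in SC, and Dnahc8, an outer arm dynein heavy chain, at 2387, 1172 and 1013 CPM in RS and 5859 and 5977 CPM in SC. Dnahc8 fell by 1.96 ± 0.33 on the log2 scale (edgeR adjusted p = 0.0014), and RS replicate 1 lay between the other RS libraries and SC.

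Of 42 tested genes of intraflagellar transport and the manchette, 14 (33.3%) were called higher in RS and 10 (23.8%) higher in SC, shares near those of all tested genes, with a median of 0.23. Ift81, of the complex that carries tubulin, was at 565, 593 and 617 CPM in RS and 271 and 252 CPM in SC, and Ift88, of the same complex B, at 185, 192 and 210 CPM in RS and 162 and 153 CPM in SC. Ift172, also of complex B, was at 393, 256 and 244 CPM in RS and 409 and 436 CPM in SC and was not called. Hook1, a manchette linker, was at 466, 560 and 585 CPM in RS and 410 and 364 CPM in SC.

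Germ cell forms of metabolic enzymes differed by step. Of 32 tested members (33 listed), 13 (40.6%) were called higher in RS and 5 (15.6%) higher in SC, with a median of 0.16. The shares over all tested genes were 29.3% and 23.0%. Gapdhs, the sperm glyceraldehyde phosphate dehydrogenase of the printed promoter, was at 270, 290 and 246 CPM in RS and 5.74 and 5.73 CPM in SC and rose by 5.55 ± 0.13 (edgeR adjusted p = 1.25e-07). Pgk2, the autosomal phosphoglycerate kinase of germ cells, was at 375, 371 and 399 CPM in RS and 140 and 138 CPM in SC, a log2 fold change of 1.46. Ldhc, the testis lactate dehydrogenase, was high in both cells at 3329, 3551 and 3792 CPM in RS and 4590 and 5269 CPM in SC. Among the 5 members higher in SC were 3 whose products are mitochondrial. Pdha2, the autosomal subunit of pyruvate dehydrogenase, was at 75.1, 78.7 and 85.1 CPM in RS and 223 and 227 CPM in SC, Cox8c, a subunit of cytochrome oxidase, at 308, 200 and 202 CPM in RS and 858 and 1090 CPM in SC, and Cyct, the testis cytochrome c, at 177, 187 and 207 CPM in RS and 541 and 465 CPM in SC.

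Kinases and channels of the future sperm were called higher in RS more often than tested genes in general, and higher in SC less often. The shares over all tested genes were 29.3% and 23.0%. Of 29 tested testis-specific serine kinases and partners (30 listed), 14 (48.3%) were called higher in RS and 1 (3.45%) higher in SC, with a median of 0.50. Tssk2 was at 141, 159 and 148 CPM in RS and 2.61 and 2.72 CPM in SC and Tssk1, its neighbour and near relative, at 161, 107 and 123 CPM in RS and 6.85 and 7.41 CPM in SC, with log2 fold changes of 5.80 and 4.19. Of 25 tested sperm channels and transporters (28 listed), 10 were called higher in RS and 3 higher in SC, with a median of 0.86, and the 3 higher in SC fell to 0 with RS replicate 1 as the only RS library and to 1 under upper-quartile scaling. Among the pore subunits of CatSper, the calcium channel of the sperm tail, Catsper1 was at 267, 260 and 235 CPM in RS and 4.15 and 4.16 CPM in SC, Catsper3 at 73.6, 71.8 and 73.5 CPM in RS and 1.26 and 1.18 CPM in SC and Catsper4 at 52.4, 53.9 and 55.5 CPM in RS and 1.12 and 0.892 CPM in SC. These rose by 5.93, 5.90 and 5.74, with all RS libraries far above SC. Catsper2, the remaining pore subunit, was at 1287, 1256 and 1363 CPM in RS and 1007 and 839 CPM in SC, high in both cells.

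Transcription regulators were also called higher in RS more often than tested genes in general. Of 30 tested members, 13 (43.3%) were called higher in RS and 4 (13.3%) higher in SC, with a median of 0.80. The shares over all tested genes were 29.3% and 23.0%. Crem, the cAMP response element modulator that activates postmeiotic genes, was at 647, 791 and 749 CPM in RS and 256 and 218 CPM in SC, a log2 fold change of 1.62 ± 0.13 (edgeR adjusted p = 2.11e-05). Fhl5, its testis coactivator ACT, was at 33.2, 39.1 and 40.2 CPM in RS and 0.939 and 0.761 CPM in SC, a log2 fold change of 5.46 ± 0.19. Taf7l, the X-linked germ cell subunit of TFIID, was at 63.2, 60.4 and 65.2 CPM in RS and 1.02 and 1.08 CPM in SC. Rfx2, which binds X-box motifs in genes of cilia and spermiogenesis, was at 417, 318 and 294 CPM in RS and 348 and 395 CPM in SC, and its groups overlapped. Mybl1, the regulator of pachytene genes also called A-MYB, was at 104, 118 and 118 CPM in RS and 319 and 267 CPM in SC and fell by 1.37 ± 0.11 on the log2 scale (edgeR adjusted p = 2.81e-05).

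Genes of the meiotic chromosome axis did not move as one. Of 20 tested members (21 listed), 7 (35.0%) were called higher in RS and 7 (35.0%) higher in SC, with a median of -0.39. The shares over all tested genes were 29.3% and 23.0%. Sycp1, which forms the transverse filaments of the synaptonemal complex, was at 262, 398 and 431 CPM in RS and 478 and 350 CPM in SC, so that the groups overlapped, with RS replicate 1 the lowest of the 5. Sycp2, a lateral element protein, was at 604, 787 and 806 CPM in RS and 2756 and 2140 CPM in SC and Hormad1, which marks unpaired axes, at 66.7, 72.5 and 88.6 CPM in RS and 244 and 192 CPM in SC. Sycp2, Sycp3 and Hormad1 were called higher in SC with log2 fold changes of -1.74, -1.94 and -1.52. Of the meiotic cohesin subunits, Smc1b was at 1744, 1759 and 1781 CPM in RS and 814 and 662 CPM in SC and Stag3 at 554, 448 and 442 CPM in RS and 465 and 484 CPM in SC. Rec8, the kleisin of meiotic cohesin, took the opposite course to the lateral elements at 108, 89.8 and 89.0 CPM in RS and 0.975 and 0.880 CPM in SC, a log2 fold change of 6.68 ± 0.18 (edgeR adjusted p = 1.59e-07).

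Recombination genes were called higher in SC more often than tested genes in general, 51.9% against 23.0%. Of 27 tested members (29 listed), 14 were called higher in SC and 7 (25.9%) higher in RS, with a median of -1.04. The share higher in RS lay near the 29.3% of all tested genes. Spo11, the nuclease that makes the meiotic breaks, was at 55.0, 57.5 and 62.5 CPM in RS and 150 and 138 CPM in SC and fell by 1.30 ± 0.10 on the log2 scale (edgeR adjusted p = 2.07e-05). Brca2, which loads the recombinases, was at 64.1, 78.7 and 71.8 CPM in RS and 183 and 164 CPM in SC. Several early recombination genes were nevertheless higher in RS. Dmc1, the meiotic recombinase, was at 1.58, 2.61 and 2.91 CPM in RS and 0.178 and 0.107 CPM in SC, and Prdm9, which marks hotspots, at 2.49, 6.46 and 6.76 CPM in RS and 0.963 and 0.631 CPM in SC, both low and both lowest among RS libraries in replicate 1. Tex15, needed for recombinase loading and for silencing of transposons, was high in RS at 378, 420 and 391 CPM in RS and 5.23 and 4.58 CPM in SC, a log2 fold change of 6.34 ± 0.13 (edgeR adjusted p = 1.18e-07). Msh4, which acts on crossover intermediates, was at 5.72, 9.73 and 9.19 CPM in RS and 6.43 and 6.07 CPM in SC, and its groups overlapped.

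The kinases and cyclins of the meiotic divisions divided as well. Of 38 tested members, 15 (39.5%) were called higher in SC and 11 (28.9%) higher in RS, with a median of -0.49. The share higher in RS lay near the 29.3% of all tested genes. Cdk1, the kinase that starts division, was between 16.1 and 17.7 CPM in the 3 RS libraries and at 52.4 and 53.3 CPM in SC, and its partner Ccnb1, cyclin B1, at 42.7, 37.8 and 35.9 CPM in RS and 10.2 and 10.8 CPM in SC, with log2 fold changes of -1.64 and 1.89. Cdc25c, a phosphatase that activates this pair, was at 27.1, 25.4 and 25.4 CPM in RS and 3.30 and 3.57 CPM in SC, and Plk1, a polo-like kinase, at 310, 310 and 249 CPM in RS and 92.7 and 97.7 CPM in SC, both higher in RS. Ccna1, the meiotic cyclin A1, was at 257, 234 and 229 CPM in RS and 186 and 192 CPM in SC, and Hspa2, the chaperone required for Cdk1 activity in spermatocytes, at 2329, 2059 and 2033 CPM in RS and 3319 and 3299 CPM in SC, with neither past 2-fold.

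Genes of the piRNA machinery were mostly lower in RS. Of 28 tested Piwi, Tudor and germ granule genes (30 listed), 16 were called higher in SC and 1 higher in RS, beside 23.0% and 29.3% of all tested genes, with a median of -1.45. Piwil1, the Piwi protein MIWI that binds pachytene piRNAs, was at 50.8, 46.0 and 45.7 CPM in RS and 1369 and 1429 CPM in SC and fell by 4.88 ± 0.10 on the log2 scale (edgeR adjusted p = 1.18e-07). Tdrd5, a Tudor protein of the same pathway, was at 7.39, 6.79 and 8.52 CPM in RS and 325 and 320 CPM in SC and fell by 5.41 ± 0.13 on the log2 scale, and Piwil2, or MILI, was at 21.5, 19.8 and 17.4 CPM in RS and 141 and 151 CPM in SC. Other granule proteins stayed within 2-fold: Ddx4, the VASA helicase, was at 1472, 1379 and 1428 CPM in RS and 1055 and 967 CPM in SC, Mael at 2098, 1652 and 1718 CPM in RS and 2112 and 2188 CPM in SC, Tdrd6, of the chromatoid body, at 1458, 1184 and 1132 CPM in RS and 1554 and 1612 CPM in SC, and Ddx25, a helicase of mRNA transport, at 766, 670 and 682 CPM in RS and 681 and 702 CPM in SC. The 1 member higher in RS was Gtsf1l, a paralog of the piRNA factor Gtsf1, at 128, 106 and 103 CPM in RS and 2.75 and 3.05 CPM in SC.

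Splicing factors had the same direction. Of 41 tested splicing factors and heterogeneous nuclear ribonucleoproteins, 27 (65.9%) were called higher in SC and 1 (2.44%) higher in RS, beside 23.0% and 29.3% of all tested genes. The median was -1.37, and the summed level was 4329 to 4634 CPM in RS and 9289 and 9897 CPM in SC. Hnrnpa2b1 was at 205, 175 and 185 CPM in RS and 970 and 905 CPM in SC and fell by 2.32 ± 0.10 on the log2 scale (edgeR adjusted p = 1.03e-06). Hnrnpu, a nuclear matrix protein, was at 1407, 1270 and 1337 CPM in RS and 1471 and 1368 CPM in SC, and Sf3b2, of the U2 particle, at 329, 253 and 249 CPM in RS and 447 and 472 CPM in SC, neither called. Without RS replicate 1, or under upper-quartile scaling, 2 were higher in RS. The 1 member higher in RS with all libraries was Hnrnph2, an X-linked gene, at 30.1, 27.1 and 28.4 CPM in RS and 1.96 and 1.95 CPM in SC.

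Genes of the ribosome, the respiratory chain and the proteasome were seldom called higher in RS. Of 84 tested cytosolic ribosomal protein genes, 20 (23.8%) were called higher in SC and 2 (2.38%) in RS, with a median of -0.71. Of 88 tested nuclear genes of the respiratory chain these counts were 19 (21.6%) and 5 (5.68%), with a median of -0.50. Of 36 proteasome genes they were 7 (19.4%) and 2 (5.56%), with a median of -0.35. With all libraries the shares higher in SC thus lay near the 23.0% of all tested genes. Those higher in RS lay below the 29.3%. The counts higher in SC moved with the setting. Without RS replicate 1 they were 29, 26 and 9 in the same order, against 4077 over all tested genes. Under upper-quartile scaling they were 15, 17 and 7, against 3335. Of the 9 members of these 3 lists called higher in RS, both ribosomal ones, 2 of the 5 respiratory ones and 1 of the 2 proteasome ones are X-linked. The ribosomal count higher in RS was 1 without SC replicate 1 or 2 and 3 with RS replicate 1 as the only RS library, and the respiratory one fell to 3 without SC replicate 1. Among 36 factors of spermatid mRNA storage and translation, 7 (19.4%) were called higher in RS and 9 (25.0%) higher in SC, with a median of -0.24. The share higher in SC lay near the 23.0% of all tested genes. Pabpc1, the poly(A)-binding protein, was at 9664, 10525 and 10284 CPM in RS and 11561 and 10439 CPM in SC, and Ybx2, the germ cell Y-box protein that holds stored mRNAs, at 1417, 1357 and 1335 CPM in RS and 2418 and 2814 CPM in SC. Of 26 tested germ cell chaperones (28 listed), 9 (34.6%) were higher in RS, a share near that of all tested genes, and 1 (3.85%) in SC. The median was 0.10, and the 1 call in SC was lost under upper-quartile scaling or DESeq2. Calr3, a calreticulin of the sperm endoplasmic reticulum, was at 13.6, 18.8 and 20.7 CPM in RS and 0.844 and 0.666 CPM in SC, and Clgn, a chaperone of meiotic and later cells, at 2938, 2447 and 2549 CPM in RS and 3476 and 3442 CPM in SC. Of 20 tested clustered histone genes (68 listed), 10 were higher in SC and 5 in RS. Most transcripts of clustered histone genes have no poly(A) tail, and the libraries were made from poly(A) RNA.

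**Figure D3:**
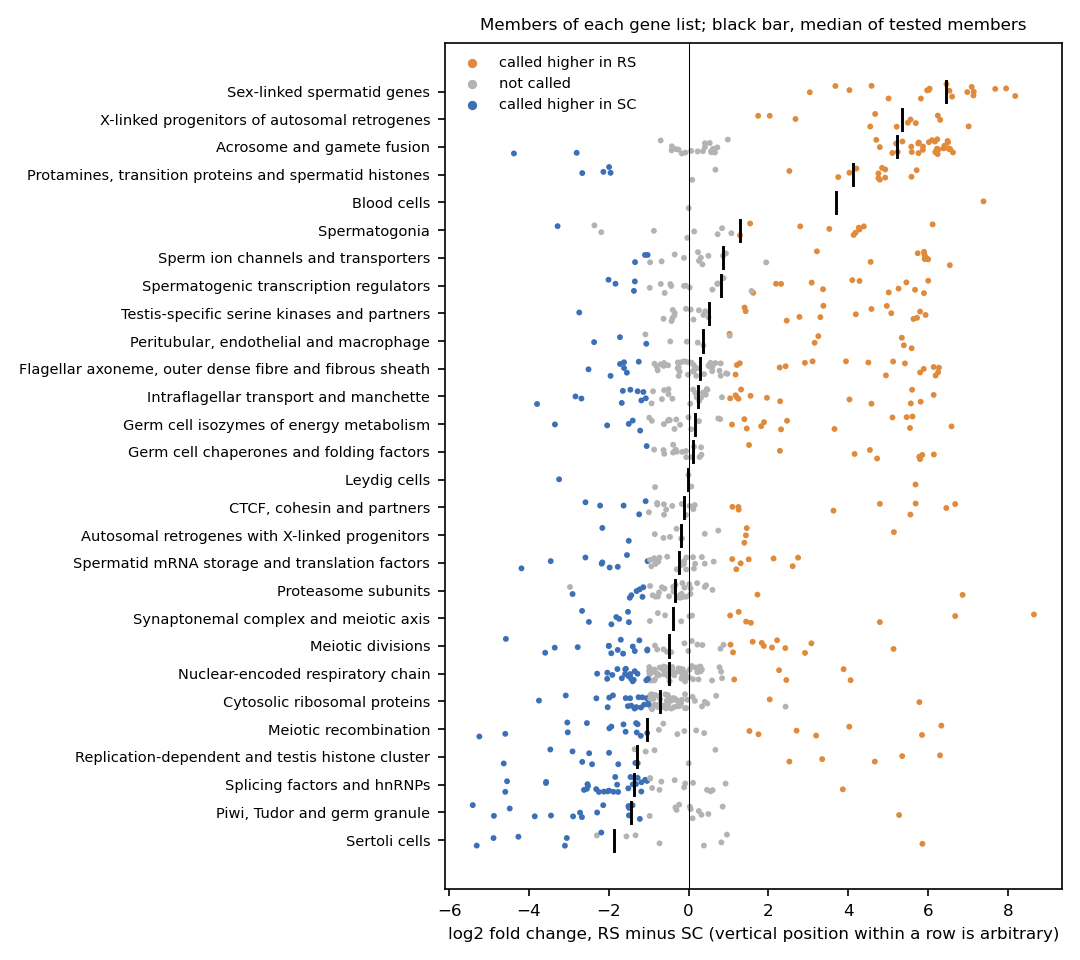
Log2 fold change (RS minus SC, x axis) of each tested member of the 28 gene lists, one point per gene, coloured by call, with a black bar at the median. The acrosome list forms clusters near 0 and near 6 with no member between 1 and 4, and the Piwi and splicing lists lie mostly below 0.

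Nearly all tested X-linked genes were higher in RS. The table held 998 X-linked genes, of which 566 were tested, and 527 of these (93.1%, 95% Wilson interval 90.7 to 94.9%, which covers counting error only) were called higher in RS, 6 higher in SC and 33 not called. Of 14814 tested autosomal genes, 3847 (26.0%) were called higher in RS and 3577 (24.1%) higher in SC. The median log2 fold change was 5.44 on the X, with quartiles of 4.34 and 6.46, and -0.09 on the autosomes. With the 45 X-linked genes that had no count in SC held at their bound, the X-linked median was 5.19. All 9 tested Y-linked genes were called higher in RS, with a median of 5.74, but they passed the filter in part through the RS libraries. With no filter, of 13 Y-linked genes 10 lay higher in every RS library than in both SC libraries and 3 had no count in any. Of 20929 autosomal genes, also with no filter, 5939 lay higher in every RS library and 6831 higher in both SC libraries.

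X-linked genes took 0.857, 0.901 and 0.922% of the counts in the 3 RS libraries and 0.0165 and 0.0153% in the 2 SC libraries, a 56.1-fold ratio of the means. In RS 372 X-linked genes (37.3%) had a mean of at least 1 CPM, against 51.9% of autosomal genes, and in SC 33 (3.31%) did, against 48.2%. With a minimum of 10 CPM these counts were 143 in RS and 0 in SC. In both SC libraries 363 X-linked genes had no count, of which 207 had none in RS either. These counts involve no filter. Since a gene passed the filter in part through the RS libraries, the share of X-linked genes called was also taken without the filter and was 67.6%, 535 of 791. It was 74.5 or 75.0% without SC replicate 1 or 2, where more X-linked genes were tested and 1 SC library remained, and 95.2 to 97.1% without one RS library in turn. Scaling factors from autosomal genes alone gave 529 of 566.

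The X-linked genes below were chosen after their values were seen, except Akap4. Akap4 had the most CPM of X-linked genes in SC with 9.63 and 8.88 CPM, followed by Cylc1, a cylicin of the sperm head cytoskeleton, at 410, 413 and 459 CPM in RS and 5.33 and 4.09 CPM in SC. Most CPM in RS were of Gm595, at 636, 828 and 843 CPM in RS and 5.44 and 3.87 CPM in SC. Widely used X-linked genes also rose: Cul4b, a ubiquitin ligase scaffold, was at 285, 286 and 292 CPM in RS and 4.30 and 3.24 CPM in SC, Huwe1, a ubiquitin ligase, at 99.4, 87.0 and 75.3 CPM in RS and 3.00 and 2.45 CPM in SC, and Usp9x, a deubiquitinase, at 163, 151 and 146 CPM in RS and 2.51 and 2.15 CPM in SC. Among the few that did not rise was Ndufa1, a subunit of respiratory complex I, at 5.88, 3.95 and 3.77 CPM in RS and 4.08 and 3.74 CPM in SC, and its groups overlapped. The 6 X-linked genes called higher in SC (4933402E13Rik, Capn6, Gprasp2, Nr0b1, Sept6 and Tsx) were all below 1 CPM in every library. Without SC replicate 1 no X-linked gene was called higher in SC, without SC replicate 2 there was 1, and with RS replicate 1 as the only RS library there were 15. Of the 6, Tsx is also a Sertoli cell marker of the lists used here.

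**Figure D4:**
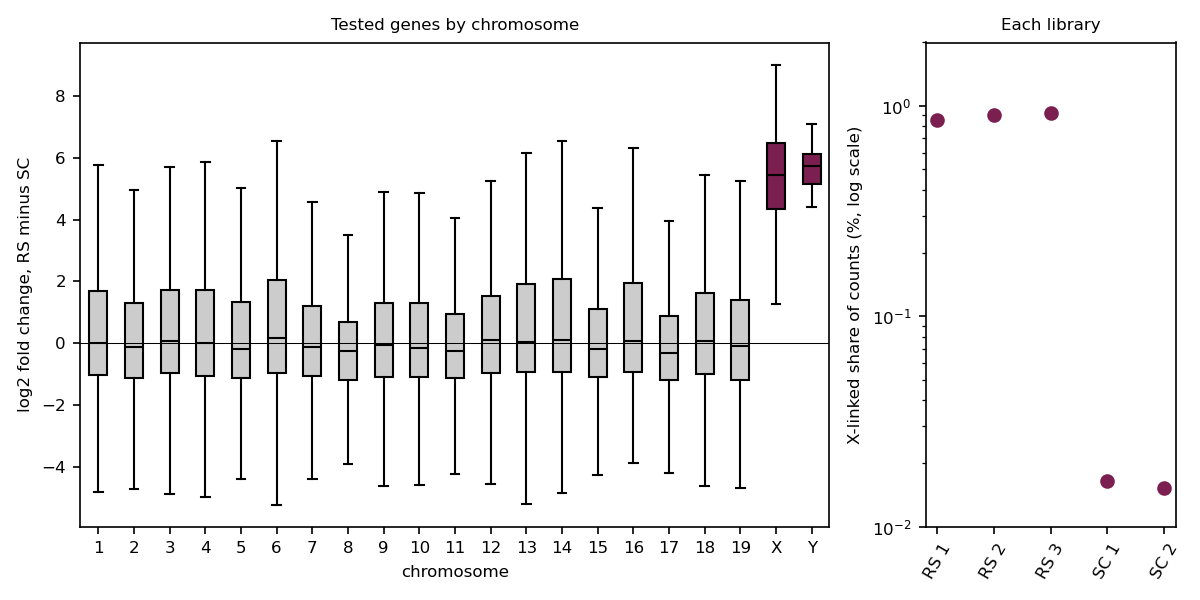
Left, log2 fold change (RS minus SC) of tested genes by chromosome (box, quartiles with the median; whiskers to 1.5 interquartile ranges). Right, share of all counts from X-linked genes in each WT library (log scale). The boxes of the 19 autosomes hold 0, those of X and Y lie above 4, and the X-linked share is 0.857 to 0.922% in RS and 0.0153 to 0.0165% in SC.

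Several X-linked housekeeping genes have an autosomal copy, a retrogene made from their mRNA, that is used in the testis. All 12 tested X-linked progenitors (13 listed) were called higher in RS, with a median log2 fold change of 5.36, or 4.95 with 1 gene without a count in SC held at its bound. They passed the filter in part through the RS libraries. With no filter the 13 summed to 113, 105 and 108 CPM in RS and to 2.86 and 2.62 CPM in SC. Of 14 tested autosomal retrogenes, 4 (28.6%) were called higher in RS and 2 (14.3%) higher in SC, beside 29.3% and 23.0% of all tested genes, with a median of -0.18. The pair Cstf2 and Cstf2t encodes a polyadenylation factor: X-linked Cstf2 was at 56.9, 51.4 and 49.9 CPM in RS and 1.03 and 0.999 CPM in SC, whereas Cstf2t on chromosome 19 was at 20.5, 22.5 and 23.8 CPM in RS and 99.8 and 99.6 CPM in SC. In the centrin pair X-linked Cetn2 was at 13.7, 15.5 and 16.0 CPM in RS and 0.226 and 0.167 CPM in SC and Cetn1 at 693, 579 and 652 CPM in RS and 857 and 916 CPM in SC. Utp14a, a ribosome assembly factor, was at 9.27, 8.53 and 9.40 CPM in RS and 0.214 and 0.167 CPM in SC and its retrogene Utp14b at 109, 83.7 and 88.0 CPM in RS and 35.8 and 33.3 CPM in SC. Pdha1, the progenitor of Pdha2, had 28, 6 and 13 counts in RS and 0 and 0 in SC, so that no fold change is given. In the first 3 pairs the X-linked gene was below 1.1 CPM in SC, and its RS libraries all lay above. Among sex-linked genes of spermatids, 19 were tested of 34 listed and all 19 were called higher in RS, but many have near-identical copies and their counts are uncertain. These 19 also passed the filter in part through the RS libraries. With no filter the 30 members with a row of counts summed to 212, 218 and 230 CPM in RS and to 3.42 and 4.13 CPM in SC.

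Ctcf and Ctcfl, the genes the series was built on, differed in course. Ctcf was at 44.5, 28.8 and 27.2 CPM in RS and 31.8 and 30.0 CPM in SC, a log2 fold change of 0.12 ± 0.22 (edgeR adjusted p = 0.65), and its groups overlapped, since RS replicate 1 was the highest and replicates 2 and 3 the lowest. Without replicate 1 the log2 fold change was -0.12. Ctcfl, on chromosome 2, was low in RS at 2.60, 4.72 and 3.12 CPM in RS and 0.0713 and 0.0595 CPM in SC, that is 252, 239 and 174 counts in RS and 6 and 5 in SC. Its log2 fold change was 5.69 ± 0.45 (edgeR adjusted p = 2.26e-05), and every RS library lay far above both SC libraries.

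Of 26 tested genes of CTCF, cohesin and their partners, 9 were called higher in RS and 5 higher in SC, with a median of -0.12. These shares lay near the 29.3% and 23.0% of all tested genes. Smc3, Stag2 and Yy1 below were chosen after their values were seen. The cohesin ring has a pair of SMC subunits, a kleisin and a STAG subunit. Smc3, the SMC subunit common to all rings, was at 366, 402 and 407 CPM in RS and 34.3 and 28.9 CPM in SC, and Smc1a, the somatic partner and an X-linked gene, at 7.94, 7.11 and 7.03 CPM in RS and 0.190 and 0.119 CPM in SC. Rad21, the somatic kleisin, was at 52.0, 54.3 and 55.9 CPM in RS and 25.5 and 24.9 CPM in SC, while Rec8 rose from under 1 CPM as described above. X-linked Stag2, a somatic STAG subunit, was at 81.2, 81.0 and 81.6 CPM in RS and 0.856 and 0.987 CPM in SC, and meiotic Stag3 did not pass 2-fold. Nipbl, which loads cohesin, was at 1822, 1702 and 1555 CPM in RS and 2408 and 2090 CPM in SC. Yy1, a zinc finger factor of promoter loops, was at 14.7, 14.6 and 13.8 CPM in RS and 89.9 and 82.4 CPM in SC and was called higher in SC, with a log2 fold change of -2.58.

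Markers of other testis cells were examined as whole lists. The 18 Sertoli markers in the table (19 listed) summed to 20.7 to 23.1 CPM in RS and to 26.5 and 26.7 CPM in SC, with Amh and Gata4 at 0 in all RS libraries and at most 15 counts in an SC library. Of 14 tested, 6 were called higher in SC and 1 higher in RS, and with RS replicate 1 as the only RS library these were 10 and 2. The marker with most CPM in RS was Espn, an actin-bundling protein, with a mean of 10.3 CPM in RS and 5.30 CPM in SC, which was not called. Clu, clusterin, was at 0.752, 0.652 and 0.825 CPM in RS and 6.24 and 6.56 CPM in SC. The 12 Leydig markers summed to 13.2 to 18.2 CPM in RS and to 18.4 and 18.6 CPM in SC, with Cyp11a1 at 0 throughout and Star, which brings cholesterol into mitochondria, at 0.989, 0.711 and 1.02 CPM in RS and 8.90 and 8.46 CPM in SC. Of 5 tested Leydig markers 1 (20.0%) was called in each direction. The globin genes Hbb-b1 and Hba-a1 were at 0 in all 5 libraries, and of 2 tested blood cell markers (8 listed) 1 was called higher in RS and 0 without RS replicate 1. The peritubular, endothelial and macrophage markers summed to 86.4 to 95.5 CPM in RS and to 16.9 and 17.3 CPM in SC, of which Aif1 alone, a macrophage marker, was at 77.6, 75.4 and 87.0 CPM in RS and 2.15 and 1.78 CPM in SC, while Cd68, another macrophage marker, stayed below 0.2 CPM in every library. Of 15 tested, 6 were called higher in RS and 3 in SC, and these counts fell to 3 in RS without SC replicate 2 and to 1 in SC without either SC library. The part of such cells in the results was not tested.

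Markers of spermatogonia differed in direction. Of 19 tested (24 listed), 10 (52.6%) were called higher in RS and 1 (5.26%) higher in SC, beside 29.3% and 23.0% of all tested genes. The count higher in RS fell to 6 without SC replicate 1 or 2, and the count higher in SC was 4 without RS replicate 1 and 3 with it as the only RS library. Kit, the receptor of differentiating spermatogonia, was at 3.24, 4.50 and 4.97 CPM in RS and 0.571 and 0.642 CPM in SC, Stra8, which acts at meiotic entry, at 2.94, 9.60 and 9.22 CPM in RS and 0.416 and 0.321 CPM in SC, and Dmrt1, a regulator of this entry, at 9.46, 8.13 and 8.20 CPM in RS and 0.440 and 0.452 CPM in SC. Zbtb16, of undifferentiated spermatogonia, was at 1.45, 1.60 and 1.09 CPM in RS and 0.523 and 0.607 CPM in SC. All 4 were below 10 CPM in every library. Id4, a stem cell marker, was the single member higher in SC, at 17.2, 13.9 and 11.5 CPM in RS and 142 and 135 CPM in SC. Summed over the list the markers reached 50.6 to 53.7 CPM in RS and 148 and 155 CPM in SC, of which Id4 made up most in SC.

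The deposited WT peak lists of germ-cell-enriched testis were set against the calls, without replicate error and with both cell types mixed. Within 1 kb of an annotated start, a CTCF peak lay at 25.0% of the genes called higher in RS (95% Wilson interval 23.7 to 26.3%), 39.9% of those higher in SC (38.3 to 41.5%) and 35.4% of those not called. For BORIS the shares were 13.7% (12.7 to 14.7%), 22.1% (20.7 to 23.5%) and 18.7%. For Pol2, the RNA polymerase that transcribes mRNA, they were 45.1%, 63.7% and 58.0%, and for H3K4me3, the mark of active promoters, 58.7%, 80.1% and 73.7%. Genes called higher in RS thus had a peak least often among tested genes in all 4 lists. On the autosomes alone the shares for genes higher in RS were 26.6%, 14.7%, 46.5% and 59.9%. Genes below the count filter had fewer peaks, between 3.94% for Pol2 and 12.5% for CTCF.

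Short motifs were counted on both strands in RefSeq promoters of 300 bases, available for 17649 of the 23284 genes. A gene counts if any of its promoters holds the motif. The share of all 32851 promoters instead counts each promoter singly, whether or not its gene was among these, and so is in another unit. The cAMP response element TGACGTCA lay in a promoter of 2.97% of the genes called higher in RS, 3.24% of those higher in SC and 3.44% of those not called, beside 1.79% of all 32851 promoters. A variant differing in 1 base, TGATGTCA, was added after the printed promoters had been read. It lay in 234 of 3701 genes higher in RS (6.32%, interval 5.58 to 7.15%), in 55 of 2936 higher in SC (1.87%, 1.44 to 2.43%) and in 2.00% of those not called, beside 3.62% of all promoters. On the autosomes the first 2 shares were 6.07% and 1.89%. GTTGCCA, part of the X-box, lay in 6.97% of the genes higher in RS (6.19 to 7.84%), 3.61% of those higher in SC (2.99 to 4.35%) and 5.12% of those not called, beside 4.38% of all promoters. GGCAGTT, a core recognised by MYB proteins, lay in 4.89%, 4.63% and 4.65%, beside 4.12% of all promoters. TATAAA, placed 20 to 40 bases before the start on the strand of the gene, lay in 2.13%, 1.46% and 1.67%, beside 1.99% of all promoters. GGCAGTT and GTTGCCA can share the letters GTT, and a gene with such an overlap counts under both. A match is a run of letters and not a bound site.

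**Figure D5:**
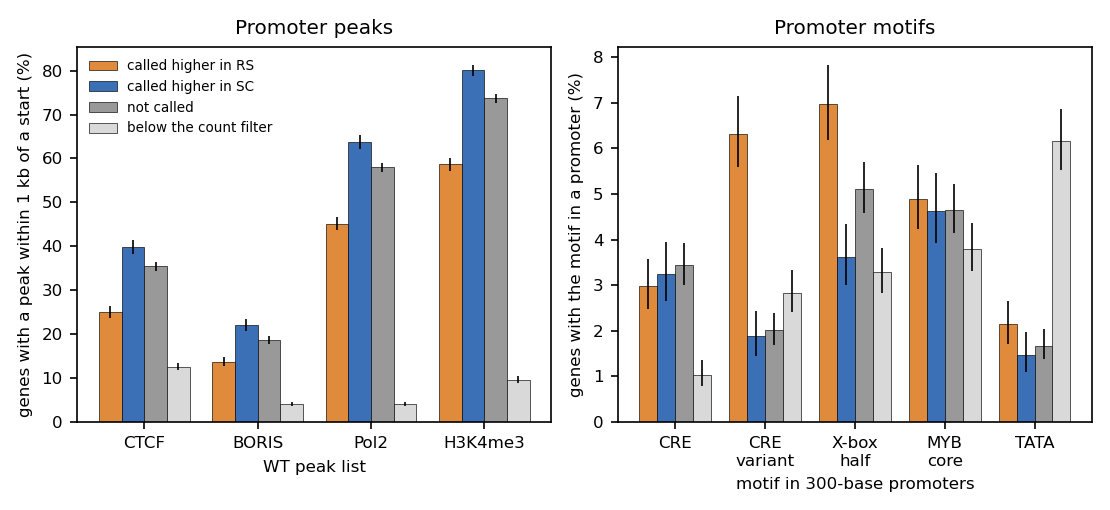
Left, percent of genes in each class with a WT peak of CTCF, BORIS, Pol2 or H3K4me3 within 1 kb of a start. Right, percent with a motif in a 300-base promoter: the cAMP response element (CRE), its variant, the X-box element GTTGCCA, the MYB core and the TATA box. Bars start at 0 and error bars are 95% Wilson intervals. The genes called higher in RS have the lowest share of peaks among the tested classes and the highest share of the CRE variant, 6.32%.

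Gene structure also differed between the classes. Of 4383 genes called higher in RS with an annotation, 222 (5.07%) had a single exon, against 89 of 3583 (2.48%) of those higher in SC and 3.23% of those not called. The median length of the longest transcript was 2841, 3056 and 2984 bases. On the autosomes alone the share of single-exon genes higher in RS was 4.99%.

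The BORIS KO libraries, 3 of RS and 3 of SC from Ctcf+/+Boris-/- mice, share no library with WT and give the same contrast in other cells. Of 15516 tested genes, 29.9% were called higher in RS and 23.3% higher in SC there. Of the 4337 genes called higher in RS in WT that were tested in BORIS KO, 3933 (90.7%) had the same call and 2 the opposite. Of 3667 genes higher in SC, 2954 (80.6%) had the same call by the edgeR test. The median log2 fold changes of these genes were 3.59 in BORIS KO against 3.81 in WT, and -1.63 against -1.83. Reading the genotypes from the libraries is limited, as Ctcfl was still at 1.97 to 2.39 CPM in BORIS KO RS, beside 2.84 to 5.12 CPM in WT RS, and Ctcf was at 172, 44.6 and 39.5 CPM in the 3 RS libraries labelled CM, not lower than the 29.4 to 48.7 CPM of WT RS (all on scaling factors common to the 23 libraries). In SC, Ctcf was at 44.4, 52.4 and 32.3 CPM in the libraries labelled CTCF HET, beside 35.2 and 33.3 CPM in WT, and so was not lower there either. In RS it was at 33.4, 21.6 and 24.6 CPM in those labelled CTCF HET. Counts outside a deleted part would not fall, and reads by exon were not analysed here.

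The difference of the change between each mutant and WT was tested as an interaction, and all 3 tests share the 5 WT libraries. For BORIS KO 768 of 16519 genes were called (4.65%), 164 with a higher and 604 with a lower RS to SC ratio than in WT. This count was 16 without SC replicate 2, 481 and 437 without RS replicate 2 or 3, and 1881 without RS replicate 1, with 1006 higher and 875 lower. For the libraries labelled CTCF HET 3842 of 16152 were called (23.8%), 2756 higher and 1086 lower, but under RLE scaling 1773 were higher and 1810 lower and with DESeq2 1592 and 2020, so that the direction of the majority rests on the scaling. For the libraries labelled CM 597 of 17077 were called (3.50%), 13 higher and 584 lower. Without RS replicate 1 these were 286, without RS replicate 2 or 3 in each case 4, and without SC replicate 1 or 2 edgeR called 0, with 1682 and 1489 genes at an unadjusted p under 0.05, while DESeq2 on all libraries called 1343.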

How the data were processed

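Poly(A) RNA of sorted RS and SC was sequenced by the authors as single-end reads, aligned with STAR to mm9 and deposited as raw counts per gene symbol. The counting tool, annotation and strand setting are not given in the sources used here, so overlapping and antisense genes are uncertain. The ChIP-seq peak lists were made by the authors with Bowtie2 and MACS or MACS2 from WT germ-cell-enriched testis. As deposited, the CTCF and BORIS lists hold a peak height (signal) and the Pol2 and H3K4me3 lists a peak score, neither of which was used beyond position. The submitters' processing notes also name TopHat2, Bowtie and DESeq2.

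Counts of the 3 WT RS and 2 WT SC libraries (50861159 to 98545423 per library) were filtered with filterByExpr (minimum count 10, minimum total 15), scaled with TMM and tested with the edgeR 4.0.16 quasi-likelihood F test in R 4.3.3 on 3 residual degrees of freedom. A gene was called at a Benjamini-Hochberg adjusted p under 0.05 over all 16052 tested genes and a fold change over 2. With 3 against 2 libraries an exact permutation test of a single value cannot go below p = 0.1. DESeq2 1.42.0 and other scalings, filters, thresholds and left-out libraries were alternatives. Differences from each mutant were interaction terms in the same kind of fit. Symbols were placed on NCBIM37 with GENCODE vM1, with 21897 matched by symbol, 43 by a synonym and 1344 not at all. A promoter peak is one within 1 kb of an annotated start. Motif matches were counted in RefSeq promoters of GRCm38.p6, and no coordinate was carried between builds other than by exact sequence match. The fits were tested on simulated counts.

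The members and the 28 gene lists were chosen with earlier results of these data known. Named genes were Ctcf and Ctcfl, per direction the 10 called genes with the largest fold change (mean at least 10 CPM) and the 10 with most CPM, in each list its core members and the 4 members with most CPM, per interaction the 5 genes with the smallest adjusted p, and per direction the 5 X-linked called genes with the largest fold change. From these sets the text describes a part. Outside this rule, and chosen after their values were seen, were Malat1, Rab4a, Tex101, Gopc, Gtsf1l, Hnrnph2, Smc3, Stag2, Yy1, Cylc1, Gm595, Cul4b, Huwe1, Usp9x, Ndufa1 and 4933402E13Rik. Columns of other genotypes entered only the interaction, all-library and BORIS KO values.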

Additional observations from a re-analysis of the deposited data

Results flagged for a closer look

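The RS minus SC log2 difference of a mutant differed from that of WT by an interaction test (edgeR) in each genotype, and the 5 called genes of lowest adjusted p are given. All values are mutant minus WT, and all 3 sets share the 5 WT libraries. In BORIS KO these were Spo11 (-2.07, adjusted p = 4.88e-05), Tmem225 (-2.13, adjusted p = 1.79e-04), Galnt7 (-1.79), Kat2b (-2.00) and Gpd2 (-1.76), whose adjusted p stayed at or below 0.0486 under the alternatives run. Spo11 was at 11.9, 11.8 and 9.74 CPM in BORIS KO RS, against 60.2, 62.4 and 67.7 CPM in WT RS, and at 110, 120 and 115 CPM in BORIS KO SC against 165 and 153 CPM in WT SC. It lies on chromosome 2, 100032 bases from Ctcfl, the gene deleted in these mice, and the part of this position was not tested.

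In the libraries labelled CTCF HET the genes were Gpd2 (-2.38, adjusted p = 3.31e-04), Gm6588 (-3.07), Sfi1 (2.64), St8sia3 (-2.55) and Adam25 (-3.63), with adjusted p up to 0.0103 under the alternatives. For Gpd2 the SC libraries of WT were at 13.1 and 13.4 CPM and those of CTCF HET at 39.8, 47.8 and 51.4 CPM. In the libraries labelled CM they were Kat2b (-3.86, adjusted p = 0.0061), Gpd2 (-2.87), 9530008L14Rik (-5.07), Zfp72 (-4.38) and Tbc1d9 (-3.33, adjusted p = 0.0158), all of which lost their call under at least 1 alternative (adjusted p up to 0.127 for the first 3, 0.134 for Zfp72 and 0.170 for Tbc1d9).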

How the results depend on the processing

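Of the WT comparison, 8329 genes were called with RLE scaling, 8286 with upper-quartile scaling, 8463 with library totals, 8364 with DESeq2 and 8496 without a low-count filter, beside 8390. Upper-quartile scaling moved the median log2 fold change of all genes from 0.015 to 0.134. Leaving out 1 library gave 7148 to 8946 called genes, 3914 to 4869 higher in RS and 3234 to 4077 higher in SC. At an adjusted p under 0.001, 3130 genes were higher in RS, and at 1e-06 with a log2 fold change over 4 there were 568 called genes, 524 higher in RS and 44 higher in SC. The log2 fold change of Ctcf turned to -0.12 without RS replicate 1 (adjusted p = 0.239), and leaving out 1 library gave -0.12 to 0.25. The share of X-linked genes called was 74.5 to 97.1% when 1 library was left out and 71.4% with all 4 genotypes in one fit.

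For the interactions, leaving out 1 WT library gave 16 to 1881 called genes for BORIS KO, 2160 to 4144 for CTCF HET and 0 to 286 for CM, and an adjusted p under 0.001 gave 4, 96 and 0 (for CM with 2602 genes at an unadjusted p under 0.05, by edgeR). DESeq2 called 1343 genes for CM. The deviations of same-numbered RS and SC libraries from their group means correlated at -0.35 and -0.24. With 2 SC libraries these deviations mirror each other, and RS replicate 1 with SC replicate 2 gave 0.35. The correlations therefore cannot decide whether libraries are paired, and the numbers were not read as pairing. With a replicate block 8228 genes were called in WT, 558 for BORIS KO, 3231 for CTCF HET and 258 for CM. Over all tested genes, the shares with a peak within 500 bases and 2 kb of a start were 30.4 and 37.9% for CTCF, 16.3 and 19.8% for BORIS, 55.0 and 56.7% for Pol2 and 69.7 and 72.4% for H3K4me3. Genes with few counts are limited by depth, and only 3 residual degrees of freedom limit every p.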

Other observations

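The share of counts from X-linked genes was also taken in the other genotypes, as values with no test. The RS libraries of WT held 0.857 to 0.922%. Those of CTCF HET held between 0.592 and 0.656%, and the BORIS KO ones between 0.479 and 0.564%. The 3 RS libraries labelled CM held 0.710, 1.73 and 0.839%. Among SC libraries, WT held 0.0153 and 0.0165%, and BORIS KO lay near it with 0.0159 to 0.0179%. The SC libraries of CTCF HET were higher, between 0.0316 and 0.0777%, as were those labelled CM, between 0.0463 and 0.122%.

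Genes without a RefSeq promoter or an annotated position were left out of the promoter counts. Of the 4383 annotated genes called higher in RS, 133 were processed transcripts and 48 pseudogenes, against 44 and 16 of the 3583 higher in SC and 276 and 95 of all 15389 annotated tested genes.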
